A study of Mus musculus with 4 samples.

Results

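NESTIN-GFP precursors and iPSC-DA neurons were compared as a late step of dopaminergic differentiation in vitro, position by position, in DNA methylation maps of 1 library each. The members were all autosomal cytosine positions with at least 5 calls in both libraries, a call being 1 sequenced read of a cytosine as methylated or unmethylated. There were 654132 such positions, out of 3868125 autosomal positions listed in at least 1 of the 4 libraries of the series. The level of a position was the percentage of its calls that were methylated, and changes are given in percentage points as neurons minus precursors. Positions were divided by their surroundings. Runs of at least 10 members with gaps under 100 bp, which mark stretches dense in covered CpGs, held 377577 positions in 15344 runs, and 276555 positions lay outside runs.

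The precursors came from mouse iPSCs of a Nestin Gfp/+ reporter line and were collected as NESTIN-GFP cells after 14 days of differentiation. The iPSC-DA neurons came from iPSCs of a Pitx3 Gfp/+ line and were sorted for PITX3-GFP at about 4 weeks. Both lines had been reprogrammed from embryonic fibroblasts with separate retroviral vectors for Oct4, Klf4, Sox2 and cMyc, and both were differentiated on MS5 stromal cells with Noggin and a TGF-β inhibitor, followed for the neurons by SHH, FGF8, BDNF, GDNF, ascorbic acid and cyclic AMP. The sample label calls the precursors neurons, and the name of the extraction protocol, precursors, is used here. Stage and reporter line cannot be told apart, the libraries have no replicates, and cell identity was not checked here, since the methylation files hold no RNA levels. The libraries of undifferentiated iPSCs and of primary mdDA neurons from Pitx3 Gfp/+ embryos, also 1 each, are given beside some results.

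In mammals, DNA methylation is added mainly to the cytosine of CpG dinucleotides and is copied to both strands by the maintenance enzyme after replication. Most scattered CpGs of the genome are methylated in differentiated cells, whereas dense CpG stretches at promoters usually stay free of methylation, and dense methylation there goes with a silent gene. RRBS, the method used, reads MspI fragments and therefore mostly samples dense stretches.

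The neuron library held 79648099 calls and the precursor library 31419979. At the members, the median was 81 calls in neurons (quartiles 33 and 138) and 18 in precursors (quartiles 10 and 30). Reads of amplified libraries are not independent molecules, and intervals on levels below cover counting error of calls only. Intervals on shares of positions, CpGs or runs treat these as independent draws, which neighbouring positions are not. They are therefore too narrow and do not measure a spread between libraries. How far calls can be trusted was measured where both strands of a CpG were members, since the strands are read from different reads. In runs, over 63282 such CpGs, the levels of the strands differed with an SD of 16 points in precursors and 12.7 points in neurons, against 8.39 and 6.07 points from counting alone. Outside runs, over 10425 CpGs, the SDs were 19.7 and 15.5 points, against 10.1 and 10.2.

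Promoters show the comparison at known genes. The stretches printed here hold the members of 5 promoter windows and were chosen to show gains, a promoter low in both libraries, the precursor marker itself and a loss. They are written 5′ to 3′ along the gene, with CpGs that had at least 5 calls in both libraries in capitals. The sequences are those of RefSeq (GRCm38.p6), and the coordinates are those of the deposited positions, whose chromosome lengths fit NCBIM37 (mm9).
Gsx1, chr5:148000234-148000301, plus strand: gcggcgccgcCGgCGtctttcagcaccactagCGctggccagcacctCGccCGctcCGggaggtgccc
Foxa2, chr2:147871877-147871934, minus strand: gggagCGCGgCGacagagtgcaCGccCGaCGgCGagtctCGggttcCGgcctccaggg
Nr4a2, chr2:56976365-56976552, minus strand: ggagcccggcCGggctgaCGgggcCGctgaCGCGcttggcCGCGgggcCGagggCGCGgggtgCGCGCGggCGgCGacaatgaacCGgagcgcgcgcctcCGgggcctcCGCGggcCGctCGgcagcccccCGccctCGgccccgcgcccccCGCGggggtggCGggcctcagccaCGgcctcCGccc
Nes, chr3:87774816-87774908, plus strand: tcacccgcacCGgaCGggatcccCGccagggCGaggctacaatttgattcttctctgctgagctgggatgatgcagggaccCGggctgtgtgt
Sdr39u1, chr14:56519036-56519161, minus strand: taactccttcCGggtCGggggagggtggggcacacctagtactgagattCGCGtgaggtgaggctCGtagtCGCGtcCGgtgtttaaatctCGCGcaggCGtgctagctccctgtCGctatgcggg

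At the stretch of Gsx1, a homeobox gene of the embryonic brain, 8 of 8 covered positions rose by at least 20 points, and the pooled level went from 10.9% of 183 calls in precursors (95% CI, Wilson, 7.19% to 16.3%) to 97.4% of 452 calls in neurons (95.4% to 98.5%). At Foxa2, a forkhead factor needed for midbrain dopaminergic neurons, 15 of 15 positions rose, from 3.54% of 932 calls (2.53% to 4.93%) to 42.4% of 3146 calls (40.7% to 44.2%). Gsx1 and Foxa2 were low in iPSCs (4.63% and 1.51%) and in mdDA neurons (4.74% and 1.18%). At Nr4a2, the nuclear receptor required for dopaminergic identity, 0 of 29 positions changed by 20 points, and the level was 2.08% in precursors (1.01% to 4.24%) and 2.64% in neurons (2.06% to 3.37%). At Nes, the gene of the intermediate filament that marks precursors, 1 of 5 positions rose, and the level was 3.03% of 66 calls (0.835% to 10.4%) and 14.8% of 325 calls (11.3% to 19%). At Sdr39u1, which encodes a short-chain dehydrogenase-like protein, 13 of 14 positions fell, from 65.2% of 506 calls (61.0% to 69.2%) to 6.03% of 1477 calls (4.92% to 7.36%), and iPSCs (4.24%) and mdDA neurons (6.33%) were as low as the iPSC-DA neurons.

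The mean methylation inside runs was higher in neurons, and the mean outside runs was lower. Inside runs it was 15.6% in precursors and 19.9% in neurons, a mean change of 4.33 points, which ranged from 2.55 to 5.57 points over the 19 autosomes. The median inside runs was 0% in precursors and 7.90% in neurons, and the median change was 0.70 points, so that the rise was carried by a part of the positions. Outside runs the mean was 75.6% in precursors and 63.8% in neurons, a change of -11.7 points with a range over autosomes of -12.7 to -10.2, and the medians were 94.2% and 75%.

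In both settings the neurons had more positions at intermediate levels. Positions under 20% made up 74.9% of those inside runs in precursors and 62.7% in neurons, while positions from 20% to 60% rose from 10.6% and 5.12% in the lower and upper class of 20 points to 17.9% and 11.1%. Outside runs, positions at 80% or more fell from 68.8% to 46.6% of the total. The classes from 20% to 80% held 5.28%, 4.85% and 6.99% of the positions outside runs in precursors, in rising order of level, and 10.2%, 11.7% and 14.7% in neurons.

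**Figure D1:**
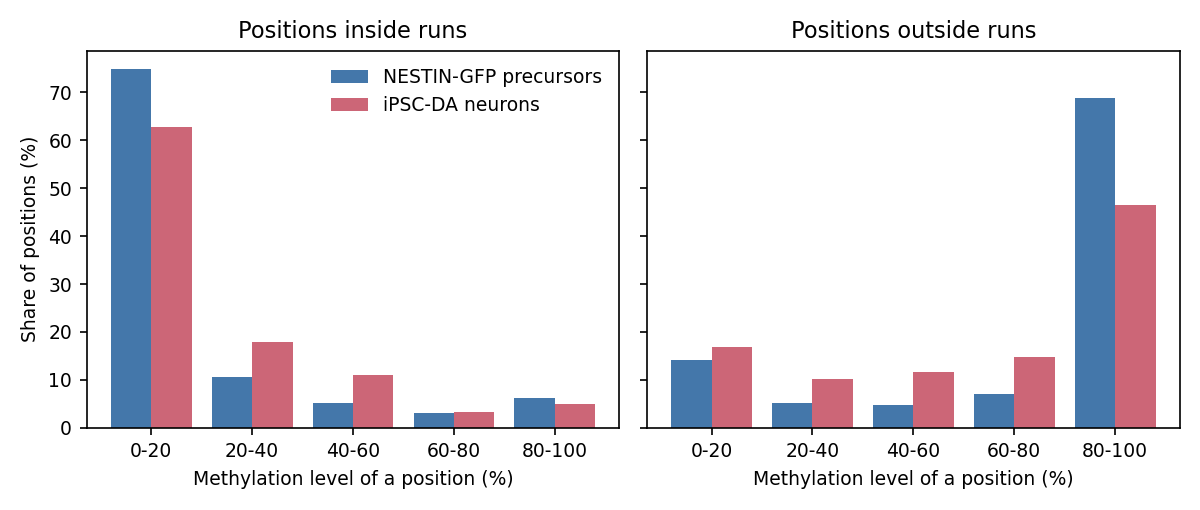
Shares of positions (y axis, percent) in 5 classes of methylation level (x axis, percent) in the libraries of NESTIN-GFP precursors and iPSC-DA neurons, inside and outside runs. Inside runs the lowest class shrinks from 74.9% to 62.7%, and outside runs the highest class shrinks from 68.8% to 46.6%, while the classes in between grow.

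A position was called gained or lost when it changed by at least 20 points with a Benjamini-Hochberg adjusted p under 0.05 in a two-sided Fisher's exact test over all members. Such a test compares these libraries and not the stages. Over all members, 44979 positions were gained (6.88%) and 64717 were lost (9.89%). Inside runs, 39019 positions were gained, or 10.3% (95% CI 10.2% to 10.4%), and 19613 were lost, or 5.19% (5.12% to 5.27%). Outside runs the balance was the opposite, with 5960 gained, or 2.16% (2.10% to 2.21%), and 45104 lost, or 16.3% (16.2% to 16.5%). Gains thus made up 66.6% of the calls inside runs and 11.7% of the calls outside. On single autosomes, the share gained inside runs lay between 7.01% and 11.9% and the share lost outside runs between 14.7% and 17.4%. By the size of the change alone, 20% of the positions inside runs rose and 9.50% fell by 20 points, and outside runs 5.81% rose and 29.2% fell.

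The balance moved with precursor depth. At positions with 5 to 9 precursor calls, the mean change was 1.15 points inside runs and -13.5 points outside. At positions with 20 to 49 precursor calls, it was 6.68 and -10.9 points, and at 50 or more calls 5.29 and -9.44 points. Falls of at least 20 points inside runs took 15.9% of the positions with 5 to 9 precursor calls and 5.29% of those with 50 or more, whereas rises took 19.5% and 18.7%. Outside runs, such falls took 35.7% and 21.3%. The mean was thus higher in neurons inside runs and lower outside in each of the depth classes. The balance of called positions inside runs was not the same in each. At 5 to 9 precursor calls, 2.34% were called gained and 6.06% lost, at 10 to 19 calls 8.16% and 6.0%, at 20 to 49 calls 16.9% and 3.75%, and at 50 or more calls 18.4% and 5.04%.

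The change depended on the starting level. Inside runs, 282915 positions began under 20% in precursors, and their mean rose by 10.1 points, from 2.97% to 13.0%. Of these positions, 72.9% were still under 20% in neurons, 16.6% had reached 20% to 40%, 8.17% had reached 40% to 60% and 0.835% had reached 80% or more. Positions that began at 20% to 40% changed by 0.06 points on average, with 14.1% of them called lost and 6.70% called gained. Those from 40% to 60%, 60% to 80% and 80% or more changed by -16.1, -29.1 and -24 points. Of the 23546 positions at 80% or more inside runs, 55.3% remained there and 12.2% were under 20% in neurons.

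Outside runs, 190160 of the positions began at 80% or more, and their mean went from 96.2% to 80.3%, a change of -16 points. Of these, 65.1% stayed at 80% or more, 17.9% were at 60% to 80%, 9.81% at 40% to 60%, and 2.66% were under 20%. Positions that began under 20% outside runs rose by 11.9 points on average, and those starting at 20% to 40%, 40% to 60% and 60% to 80% changed by -1.97, -16 and -22.1 points. The mean change of the lowest class exceeded that of the highest by 34.0 points inside runs and 27.9 points outside.

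Starting level and change share the same precursor calls, and their counting error enters both. The starting level was therefore also taken from the left strand of a CpG and the change from its partner on the other strand. Outside runs the fall of methylated positions was seen on the partner strand as well. CpGs that began at 80% or more on the left strand changed by -10.4 points on the partner, with a range over autosomes of -12.1 to -8.21, and those from 60% to 80% changed by -17.6 points. Inside runs the falls were mostly not seen on the partner. CpGs from 40% to 60% changed by 10.3 points on the partner and by -5.21 points on the left strand itself, and those from 60% to 80% by 2.05 and -18.9 points. The partner values of these classes ranged over autosomes from -0.70 to 18.0 and from -9.06 to 9.15 points, and both ranges include 0. CpGs at 80% or more changed by -3.71 points on the partner and by -14.7 points on the left strand, while CpGs under 20% rose by 8.70 points on the partner and 11.0 points on the left strand. The largest rise on the partner inside runs, 17.0 points, belonged to CpGs that began at 20% to 40%, whose partners went from 20.3% to 37.4%.

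**Figure D2:**
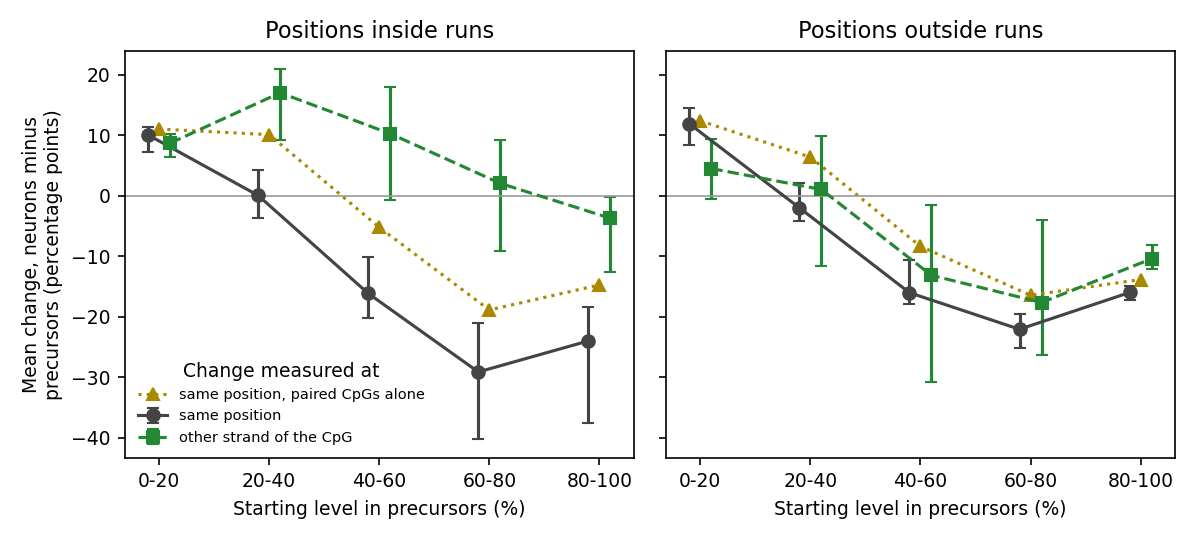
Mean change from precursors to neurons (y axis, percentage points) by starting level in precursors (x axis, percent), inside and outside runs, with circles for all positions, triangles for the left strand of CpGs covered on both strands, and squares for the partner strand of those CpGs. Bars span the lowest and highest of the 19 autosomes, and inside runs the squares stay above 0 up to a starting level of 80% whereas the circles fall to -29.1.

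Calls on 1 strand were then set against the partner. Of 9202 CpGs inside runs whose left strand was gained, the partner rose by at least 20 points in 71.9% (71.0% to 72.8%), and the mean partner change was 32.1 points. Of 1260 CpGs inside runs whose left strand was lost, the partner fell by at least 20 points in 38.6% (35.9% to 41.3%), with a mean partner change of -15.1 points. Outside runs, 63.7% of the partners of 416 gained CpGs rose by that much (59% to 68.2%), and 66.3% of the partners of 1370 lost CpGs fell (63.7% to 68.7%). Among the partners of all paired CpGs, called or not, rises of 20 points took 22.8% and falls 4.12% inside runs, and 8.09% and 24% outside. Losses inside runs were thus repeated on the partner least often, although above the share among all partners.

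**Figure D3:**
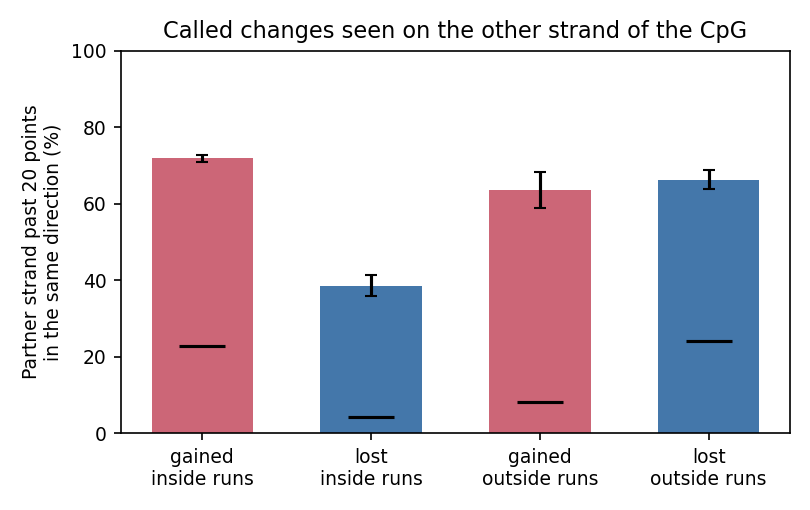
Share of CpGs (y axis, percent) whose partner strand changed by at least 20 points in the direction called on the left strand, for gains and losses inside and outside runs (x axis). Whiskers are 95% Wilson intervals and short horizontal lines give the share among all paired CpGs. Losses inside runs stand lowest at 38.6%.

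Each run was then taken as 1 unit with its calls pooled. Of the 15344 runs, 2389 were gained (15.6%, 95% CI 15% to 16.2%) and 804 were lost (5.24%, 4.90% to 5.60%). The adjusted p alone was under 0.05 in 72.3% of the runs, and all runs that changed by 20 points passed it, so that size decided the calls. Gained runs had a median level of 11.6% in precursors (quartiles 7.44% and 17.3%) and 41.0% in neurons (35.8% and 47.1%). Their neuron level lay between 20% and 40% in 44.0%, between 40% and 60% in 48.6%, and at 80% or more in 1.21%. In iPSCs the median of the gained runs was 4.06% and in mdDA neurons 4.75%, and 93.3% of them were under 10% in both. Within a gained run, the median share of positions that rose by 20 points was 68.3%.

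Lost runs had a median of 48.1% in precursors (quartiles 33.6% and 70.0%) and 9.24% in neurons (5.86% and 32.3%). They were at 5.66% in iPSCs and 7.60% in mdDA neurons, and 63.7% of them were under 10% in both. Lost runs had fewer positions and calls than gained runs. Their median was 12 positions and 203 precursor calls, compared with 21 positions and 460 precursor calls in gained runs. Among runs of 10 to 14 positions, 12.3% were gained and 10.6% lost. Among runs of 60 or more positions, 22.2% were gained and 0.389% lost. Among runs with under 10 precursor calls per position, 9.85% were gained and 14.7% lost, with 20 to 40 calls 18.6% and 3.11%, and with 40 or more calls 9.66% and 7.50%, so that the shares did not follow depth in the deepest class. Runs of that class had a median precursor level of 74.4%. Of 5004 runs with at least 5 CpGs covered on both strands, 1115 were gained on the left strands, and their partner strands rose by 20 points in 79.6% (77.1% to 81.8%). Only 34 were lost on the left strands, with a fall on the partners in 55.9% (39.5% to 71.1%).

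Precursor levels above those of the other libraries were also read more often at low depth. At the 185410 positions inside runs that stayed under 10% in each of the other libraries, the precursors were at 20% or more in 15.5% of the positions with 5 to 9 precursor calls, in 11.5% with 10 to 19, in 4.60% with 20 to 49 and in 1.01% with 50 or more. The part of depth in the losses inside runs was not tested.

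**Figure D4:**
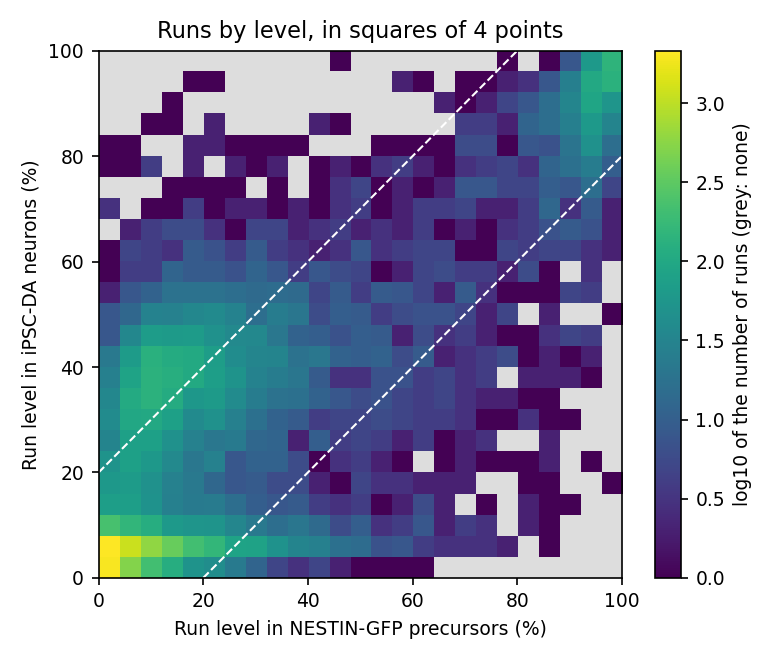
Runs by their pooled level in precursors (x axis, percent) and neurons (y axis, percent), coloured by the number of runs per square of 4 by 4 points on a log10 scale. Dashed lines mark a change of 20 points, and a band of runs lies above the upper line near 10% in precursors and 40% in neurons.

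Named runs had to hold at least 20 positions whose depth reached 10 calls in precursors and in neurons. The largest gain lay at chr7:148108468-148108697, where 30 positions went from 6.54% (5.32% to 8.0%) to 77.3% (75.8% to 78.8%), and 100% of them rose by at least 20 points. The longest of the 5 largest gains, chr5:144014880-144015679, covered 800 bp with 95 positions and went from 23.4% (21.4% to 25.4%) to 81.2% (80.5% to 81.9%). Gains from 7.14% to 65.2%, from 17.2% to 72.9% and from 9.55% to 64.2% were found at chr2:160192434-160192509, chr15:96471764-96471834 and chr10:20880974-20881207. All 5 were between 2.0% and 4.49% in iPSCs and between 2.82% and 8.77% in mdDA neurons.

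The largest loss in runs lay at chr10:11211843-11211974, from 81.2% (79.6% to 82.7%) to 30% (29.2% to 30.8%), but 23.8% of its 21 positions fell by 20 points, so that the pooled change of this run reflects unequal depth among its positions. It was at 27.6% in iPSCs and 41.9% in mdDA neurons. The run at chr4:55543508-55543824 went from 73.2% to 26.1%, with 72.4% of its positions falling, and that at chr3:5860661-5860812 from 73.3% to 27.1%, with 63.0%. The run at chr2:155969618-155969964 holds the promoters of Nfs1, a cysteine desulfurase of iron-sulfur cluster assembly, and Romo1, a mitochondrial membrane protein. It went from 61.6% (57.9% to 65.1%) to 14.9% (13.4% to 16.4%), with 14.2% in iPSCs and 6.92% in mdDA neurons. The run at chr9:70504892-70505227, at the promoter of the deubiquitinase gene Mindy2, went from 49.2% to 7.92%. No promoter window was placed at the other 8 runs named here, which does not say that no gene is there.

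Outside runs, the loss in points was largest far from runs, where the precursor level was also highest. Positions at least 10000 bp from the nearest run, 181444 in number, went from 85.0% to 72.1%, a change of -12.9 points, with 17.2% called lost and 1.24% called gained. Positions within 500 bp of a run had lower levels, 34.7% in precursors and 25.9% in neurons, and changed by -8.88 points, with 14.4% lost and 5.00% gained. The call fixes the precursor and neuron levels of called positions, and the other libraries were not used for it. Where all 4 libraries had at least 5 calls, positions lost outside runs had means of 42.9% in iPSCs, 86.7% in precursors, 40.2% in the neurons derived from iPSCs and 50.6% in mdDA neurons. Positions not called there had 46.9%, 72.7%, 67.4% and 62.4% in the same order. Positions gained inside runs had 6.10%, 6.77%, 48.5% and 7.95%.

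Promoter windows of 300 bases, from 250 bases before to 50 after a RefSeq start, could be measured with at least 5 members for 5374 genes. Of these, 540 were gained (10.0%) and 452 lost (8.41%), with the same rule as for runs, and the median change was 1.48 points. Gained promoters went from a median of 9.26% to 38.8%, and were at 3.76% in iPSCs and 4.50% in mdDA neurons. Lost promoters went from 43.8% to 7.80%, and were at 5.16% and 7.26%. Gained promoters had a median of 17 positions and 344.5 precursor calls, and lost promoters 9 positions and 112.5 precursor calls. Where both strands had at least 3 positions, 292 of 464 gained promoters (62.9%) and 98 of 247 lost promoters (39.7%) passed 20 points on each strand.

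After Gsx1, the largest gains among promoters in which 8 or more positions reached 10 calls were at Marveld2, which encodes the tight-junction protein tricellulin, from 9.87% of 1206 calls (8.31% to 11.7%) to 85.1% of 1162 calls (83.0% to 87.0%), at Ube2ql1, from 9.44% to 69.0%, and at Kank1, a regulator of the actin cytoskeleton, from 7.42% to 64.8%. Inhbb, the inhibin beta B subunit, went from 9.62% to 61.2%, Gm10649 from 11.3% to 61.4%, the homeobox gene Hhex from 15.2% to 64.4%, Aig1 from 12.9% to 61.3%, Foxred2 from 6.87% to 54.9% and 1600014C23Rik from 4.26% to 50.4%. The 10 promoters with the largest gains were between 1.49% and 5.43% in iPSCs and between 2.47% and 6.67% in mdDA neurons, and in each of them both strands rose by at least 41.2 points.

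Under the same limit of 8 or more positions with 10 calls, the largest promoter losses were at Gnptg, the gamma subunit of an enzyme that tags lysosomal proteins, from 77.9% of 217 calls (71.9% to 82.9%) to 6.09% of 394 calls (4.13% to 8.90%), and at Nktr, a cyclophilin-related protein of natural killer cells, from 83.3% of 186 calls (77.3% to 88.0%) to 11.6% of 567 calls (9.26% to 14.5%). LOC102631992 went from 78.3% to 7.37%, Tnfaip1 from 83.2% to 14.9%, Itgb1, the integrin beta 1 subunit, from 73.3% to 7.27%, Rnft2 from 71.3% to 6.39%, Tnfaip2 from 72.7% to 8.74%, Col6a5, a collagen VI chain, from 91.0% to 34.4%, and Dnah1, an axonemal dynein, from 67.5% to 11.2%. The strands did not always fall alike. At Itgb1 the changes on the plus and minus strands were -12.2 and -80.1 points, and at Rnft2 -91.0 and -31.6 points, while at Sdr39u1 they were -69.0 and -51.9. The level in iPSCs was between 3.07% and 5.89% at these promoters apart from Col6a5, with 34.5%.

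Of the 32 genes on a list of dopaminergic neuron genes, 9 were measured, of which 3 were gained and 0 lost. Over all promoters, 10.0% were gained and 8.41% lost, and the counts of this and the following lists stand beside these shares. The median change was 17.3 points, against 1.48 over all promoters. Besides Foxa2, the homeobox gene En1 rose from 11.4% of 254 calls (8.07% to 15.9%) to 32.1% of 1928 calls (30.1% to 34.2%), with 2 of 9 positions past 20 points, and Bnc1, the zinc finger gene basonuclin 1, from 14.3% of 712 calls to 35.2% of 2686 calls. Lmx1b, a LIM homeobox factor of the midbrain, had 27.5% in precursors (20% to 36.6%) and 47.3% in neurons (44.5% to 50%), and the dopamine receptor gene Drd2 had 16.6% (11.9% to 22.7%) and 33.9% (31.2% to 36.7%), both short of 20 points. The promoters of Pitx3, Th, En2, Lmx1a, Foxa1, Otx2, Slc6a3, Slc18a2 and Ddc were not measured here.

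Neural precursor and patterning genes had 6 gained and 0 lost among 15 measured, with a median change of 19.2 points, beside shares of 10.0% and 8.41% over all promoters. Sox2, a factor that keeps precursors undifferentiated, went from 11.1% of 54 calls (5.19% to 22.2%) to 45.4% of 216 calls (38.9% to 52.0%), and was read on 1 strand. Barhl2, a homeobox gene, went from 3.47% to 34.3%. The other genes gained were Gsx1, Pax2, Pax6 and Lhx2. At Lhx2, with 32 precursor calls, 1 of 5 positions rose by 20 points and 3 fell by as much, so that its pooled rise reflects unequal depth among positions. Of the 15 genes, 14 were higher in neurons. The exception was Vim, from 25% of 104 calls to 10.3% of 406 calls, a fall of 14.7 points that was not called. Its plus and minus strands changed by -28.8 and 4.31 points. Among 10 neurogenesis transcription factors, 4 were gained and 0 lost, beside the same shares of 10.0% and 8.41%. These were the LIM homeobox genes Lhx1, from 1.84% to 37.3%, Lhx4, from 3.25% to 36.8%, and Isl1, from 9.46% to 35.0%, and the POU factor Pou4f1, from 7.36% to 35.6%. At Isl1 the plus and minus strands changed by 6.00 and 49.1 points, and 6 of 16 positions rose by 20 points. The other 6 genes were not called, and the median change of the 10 was 11.0 points.

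Of 5 pan-neuronal and synaptic genes, 3 were gained and 0 lost, with a median change of 20.1 points (10.0% and 8.41% over all promoters). Tubb3, the neuronal beta-tubulin, had 0 methylated of 40 calls in precursors (0% to 8.76%) and 47.0% of 383 calls in neurons (42.1% to 52.0%), in 5 positions of 1 strand. The potassium channel gene Kcnc1 went from 15% of 1016 calls to 41.3% of 5700 calls, and the calcium channel gene Cacna1b from 26.8% of 112 calls to 46.9% of 633 calls. At Cacna1b 2 of 7 positions rose by 20 points. Its 6 positions on the plus strand changed by 15.9 points, short of 20, and the 1 on the minus strand by 45.95 points. The pluripotency list had 2 measured genes, of which the growth factor gene Fgf4 was gained, from 9.69% to 44.7%. Each of the neural promoters named so far was under 11.0% in mdDA neurons, except Lhx2 with 27.4%.

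**Figure D5:**
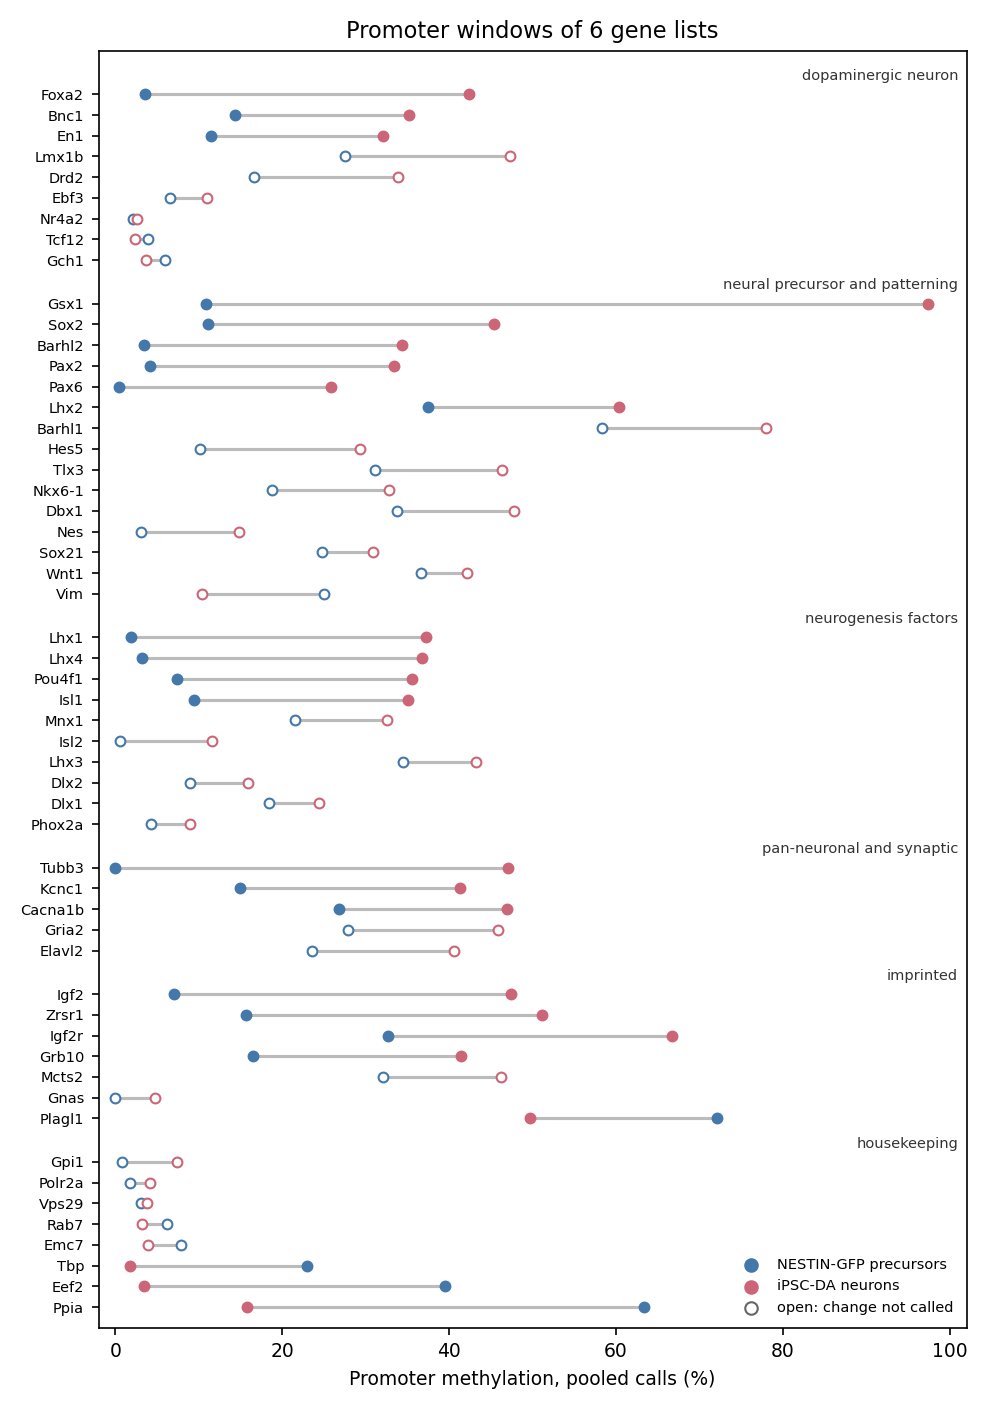
Pooled promoter methylation (x axis, percent) of the measured genes of 6 lists (y axis), with blue points for NESTIN-GFP precursors and red points for iPSC-DA neurons, filled where the change was called. Foxa2, Gsx1, Lhx1 and Tubb3 move to the right from near the left margin, Nr4a2 stays there, and Ppia, Eef2 and Tbp move to the left.

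Imprinted genes, whose parental copies differ in methylation at control regions, had 4 gained and 1 lost among 7, with a median change of 24.9 points (10.0% and 8.41% over all promoters). Igf2, a fetal growth factor, went from 7.0% (4.22% to 11.4%) to 47.4% (44.9% to 50%) with 6.22% in mdDA neurons. Zrsr1, whose promoter is methylated on 1 parental copy, went from 15.7% of 83 calls (9.39% to 25%) to 51.1% of 1434 calls (48.5% to 53.7%) and was at 49.7% in mdDA neurons. Igf2r went from 32.7% to 66.7% and Grb10 from 16.6% to 41.5%, with 3.03% and 4.02% in mdDA neurons. Plagl1 was lost, from 72.1% to 49.7%, with 39.1% in mdDA neurons. Germline genes, which are silenced in somatic cells, had 1 gained and 0 lost among 8, a count near the shares of 10.0% and 8.41% over all promoters. The gained gene was Tdrd5, from 27.7% to 71.3%, and the other 7 had levels of 73.3% to 97.4% in precursors and 70.9% to 95.9% in neurons. The median change was -1.70 points.

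Hox genes, which set position along the body axis, had 2 gained and 1 lost among 6 (10.0% and 8.41% over all promoters) and a median change of 11.0 points, with Hoxa13 from 9.79% to 43.0%, Hoxd11 from 25.4% to 48.1%, and Hoxd9 from 39.5% of 38 calls to 7.65% of 575 calls. At Hoxd9 the plus and minus strands changed by -5.08 and -57.6 points, and 0 of 6 positions reached 10 calls in both libraries. Axon guidance genes had 2 gained and 1 lost among 16, near the shares of 10.0% and 8.41% over all promoters, with a median change of 3.84 points. The netrin receptor genes Unc5a and Unc5c went from 3.10% to 28.9% and from 10.0% to 41.5%, and the ephrin receptor gene Epha7 from 50.4% to 20.4%. Unc5c had 80 precursor calls, and 0 of its 12 positions reached 10 calls in both libraries. Its plus and minus strands changed by 43.2 and 6.73 points. Of 9 genes of the DNA methylation machinery, 1 was gained and 1 lost, also near these shares, with a median change of 2.31 points. Tet2, an enzyme that oxidises methylcytosine, went from 3.64% of 2640 calls (2.99% to 4.42%) to 31.4% of 5031 calls (30.2% to 32.7%), with 37 of 47 positions past 20 points, and Gadd45a from 43.8% of 89 calls to 4.83% of 912 calls.

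Housekeeping genes had 0 gained and 3 lost among 8, with a median change of -3.48 points (10.0% and 8.41% over all promoters). Ppia, the cyclophilin A gene, went from 63.4% of 82 calls (52.6% to 73.0%) to 15.8% of 298 calls, Eef2, a translation elongation factor, from 39.5% of 76 calls to 3.45% of 435 calls, and Tbp, the TATA-binding protein, from 23.0% of 74 calls to 1.80% of 722 calls. Eef2 was read on 1 strand, and 0 of its 12 positions reached 10 calls in both libraries. At Tbp 3 of 7 positions fell by 20 points, and the plus and minus strands changed by -43.1 and -13.3 points. At Ppia 7 of 7 positions fell by 20 points, with 1 of them on the minus strand. The single glial gene measured, Ndrg2, was called lost, from 36.9% of 65 calls to 13.4% of 254 calls. Its plus and minus strands changed by -14.4 and -15.6 points, each short of the size needed for a call. Of its 7 positions, 2 fell by that size, so that its pooled fall reflects unequal depth between strands. Both measured genes of the mesoderm, endoderm and fibroblast list were lost. Runx1, a blood-forming transcription factor, went from 62.0% of 113 calls to 8.14% of 258 calls, and Foxa3 from 43.3% to 14.6%. The plus and minus strands changed by -64.0 and -34.1 points at Runx1 and by -72.2 and -6.91 points at Foxa3. The other 3 libraries were between 1.01% and 16.3% at these 6 promoters. Over the 13 lists together, 98 of 447 genes were measured, 27 were gained and 10 lost, and over all promoters 10.0% were gained and 8.41% lost.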

How the data were processed

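RRBS libraries of NESTIN-GFP precursors and iPSC-DA neurons were compared, 1 each, with those of iPSCs and mdDA neurons beside them. The submitters' processing notes and the paper's methods name FastQC, Trim Galore 0.3.5, Bareback and Bismark 0.10.1 for single reads of 40 bases. The genome build is not given in the sources used here. For each cytosine position the authors deposited the count of methylated and of unmethylated calls, without normalization or a filter on coverage, and the percent of methylated calls. Both strands of a CpG are listed apart, and were kept so.

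Levels were recomputed from the counts. Positions, runs and promoters were tested on pooled calls by Fisher's exact test (two-sided), with p-values adjusted by Benjamini and Hochberg across everything tested at that level, and called at an adjusted p under 0.05 and 20 points. Without a genome of the build, RefSeq promoter sequences were laid along their own chromosome where listed positions fell on their CpGs, and 6710 of 31396 windows had a single best place in the order of their neighbours. No coordinates were converted, 91.6% of the placed windows had every listed position on a CpG, and windows on chromosome 18 were not used. For each gene the window with the most members was taken. Strands were paired as neighbouring positions 1 bp apart, from the left, which can mispair CpGs that follow each other directly.

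The 5 largest gains and losses of runs (at least 20 positions of 10 calls), the 10 largest of promoters (at least 8 such positions), up to 3 called genes per list and direction, and a set of dopaminergic genes were named by rule. Pax2, Pax6, Lhx2, Isl1 and Grb10 were named beyond it to complete counts, and Vim as the member of its list that was lower in neurons. Members and lists were chosen with earlier results of these data known. Intervals are Wilson 95% intervals. The code was tested on simulated data and ran in Python 3.11.15 with numpy 2.4.6, pandas 2.3.3 and scipy 1.17.1.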

Additional observations from a re-analysis of the deposited data

Results flagged for a closer look

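Chromosome X was left out of the comparison and carried a signal of its own. Inside 246 runs on chromosome X, 4179 positions had a mean of 22% in precursors and 30.5% in neurons, a change of 8.54 points, and the 19 autosomes had 2.55 to 5.57 points. Outside runs, 6405 positions on chromosome X had 69.1% and 62.3%, a change of -6.83 points. The sex of the lines was not used, and the difference between chromosome X and the autosomes was not tested.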

How the results depend on the processing

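Means were called moved when they shifted by more than 1 SD between autosomes (0.773 points inside runs, 0.633 outside, 3.6 and 1.68 for the contrast of lowest and highest starting class), and counts or shares when they moved by over 1.5 times. Of 128 values of the main results under alternatives, 78 did not move and 50 moved. A change of direction was looked for in means alone, and 0 of the means among these values changed direction. Counts and shares have no sign, so the balance of gains and losses is given below where it turned. The cause of the shifts was not tested. The mean change inside runs was 0.809 points with a minimum of 1 call, 6.07 with 10 calls, 2.91 with gaps under 200 bp, and 1.73 and 5.72 with runs of at least 5 and 20 positions. Outside runs it was -15.7, -8.90, -14.5 and -8.14 points with 1 call, 10 calls and runs of 5 and 20 positions. The contrast of starting classes inside runs was 53.1 points with 1 call, 22.4 with 10 calls, 46.0 and 27.6 with runs of 20 and 5 positions, and 27.8 with the starting level from a random split of the precursor calls. Outside runs it was 40.2, 24.5, 30.3 and 22.9 points with 1 call, 10 calls, runs of 5 positions and split calls, and 25.9 with strands merged. On the other strand, chosen after seeing the data, the contrast was 12.4 and 14.9 points.

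The shares inside runs became 6.81% gained with 1 call, 6.08% gained and 1.84% lost with neuron calls thinned to the precursor calls, and 20.03% and 9.50% by size alone. Outside runs the share gained was 0.831% with 1 call, 3.82% with 10 calls, 1.11% with thinned calls, 4.08% and 1.00% with runs of 20 and 5 positions, and 5.81% by size alone, and the share lost was 9.99% with 1 call and 29.2% by size alone. Runs gained numbered 3807 at 10 points, 908 at 30 points and 1300 with runs of 20 positions. Runs lost numbered 1905 at 10 points, 370 at 30 points, 345 with 10 calls, and 112 and 4273 with runs of 20 and 5 positions. Promoters gained numbered 919 at 10 points and 205 at 30, and promoters lost 868 and 263. Promoters lost were 241 with 10 calls and 198 with at least 10 covered positions. On each strand, chosen after seeing the data, 292 promoters were gained and 98 lost. Runs of at least 5 positions gave more losses (4273) than gains (3416). Promoters lost also outnumbered promoters gained at 30 points (263 and 205) and with the unweighted mean of positions (514 and 507).

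Starting classes that changed sign were 20% to 40% inside runs, with -0.49, -0.79, -0.39, -0.53 and -0.18 points (gaps under 200 bp, 1 call, runs of 5 positions, strands merged, without chromosome 10), and outside runs with 0.17 (1 call). On the other strand, 40% to 60% and 60% to 80% inside runs gave 10.3 and 2.05 points and 20% to 40% outside gave 1.05. Leaving out chromosome 10, which held 6.21% of autosomal neuron calls and 5.25% of precursor calls, moved none of the main results it was applied to. No paired analysis was possible because each stage has 1 library.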

Other observations

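Promoters were also grouped by gene symbol into 6 families, chosen after seeing the data. Ion channel subunits had 18 gained and 1 lost among 36 measured, with a median change of 18.9 points and medians of 13.0% in precursors, 36.1% in neurons, 4.05% in iPSCs and 5.2% in mdDA neurons. Ribosomal proteins had 1 gained and 8 lost among 50, with a median change of -0.38 points. Respiratory chain subunits had 0 gained and 5 lost among 28, and proteasome subunits 0 gained and 2 lost among 14. Zinc finger proteins had 3 gained and 11 lost among 81, and solute carriers 9 gained and 5 lost among 87. The shares over all promoters were 10.0% gained and 8.41% lost.

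Of 4493 runs with a placed promoter window, 530 were gained (11.8%) and 4.18% were lost. Of 10403 runs without one, 1791 were gained (17.2%) and 5.71% were lost. The difference was not tested, and the absence of a placed window does not show the absence of a promoter.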
